A study of Mus musculus with 8 samples.

Results

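The course of the HU210 response in N2A cells was followed through 4 libraries, 1 for each of 2, 4, 6 and 8 h of exposure to 2 µM HU210, out of 8 libraries in the series. N2A is a mouse neuroblastoma line, an established tumor cell line of neural crest origin, and HU210 is a potent agonist of the CB1R, the main cannabinoid receptor of neurons. All cells were kept in serum-free medium for 16 h before the agonist, dissolved in DMSO, or drug-free DMSO was added, and each library pooled mRNA of 2 to 3 experiments before sequencing. The other 4 libraries received DMSO for the same 4 times and were used only to mark genes that took the same direction without the drug. The table gives a gene's abundance as FPKM, the number of sequenced fragments scaled to the length of the transcript and the size of the library. It lists 16980 genes at 1 or more hours and 15888 at all 4, and the 11306 of these with a mean of at least 1 FPKM over the 8 libraries were examined. Changes were taken on the log2(FPKM + 1) scale, which understates the change of low genes, and fold values are ratios of FPKM + 1. Below, a gene rose or fell if it was higher or lower at every one of the 3 steps (2 to 4 h, 4 to 6 h and 6 to 8 h) in the HU210 libraries. This is a description of 4 libraries and not a test.

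Because the experiments were pooled before sequencing, no hour has a replicate, and neither the variation between experiments nor the sequencing depth can be read from FPKM values. It is not stated whether the 4 hours were normalized together, so every level set across hours below rests on the scaling of each library as deposited. The median gene stood at 12.3, 11.99, 13.1 and 12.8 FPKM in the HU210 libraries from 2 to 8 h and between 12.2 and 12.9 FPKM in the DMSO libraries. Of 18 markers of sympathetic neuroblastoma, 14 were listed and 12 to 14 of them reached 1 FPKM in each library, with a summed level of 885 to 1037 FPKM. Peripherin (Prph) and stathmin-2 (Stmn2) were the most abundant, while the catecholamine enzymes Th, Dbh and Ddc stood between 0.663 and 2.25 FPKM, and Tubb3, Nefl and Nefm were among those not listed at all 4 hours. Of 20 markers of glia, macrophages, fibroblasts, endothelium and epithelium, 13 were listed, 3 to 4 reached 1 FPKM, and their sum was 9.95 to 11.8 FPKM, led by the myelin gene Mbp. No sample was taken before the drug was added, so 2 h is the earliest point of each course.

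CB1R couples to inhibitory G proteins, which lower cyclic AMP and engage small GTPases, Src and Stat3, and in N2A cells this signaling is followed by the outgrowth of neurites. A change in mRNA that is sustained over hours differs from the brief burst of immediate-early transcription, in which genes such as Fos and Egr1 are induced and shut off again. Cells without serum also change with time on their own, since growth factors and lipids are absent, and cell division, sterol synthesis and chaperone genes are known to respond to such conditions. A direction shared with the DMSO libraries is therefore given beside most genes named.

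The courses of most genes did not run in one direction. Of the 11306 genes, 810 rose at all 3 steps (7.16%) and 541 fell at all 3 steps (4.79%) with HU210, whereas 5235 turned direction at both later steps. With DMSO, 314 genes rose (2.78%) and 649 fell (5.74%). Counting only genes that changed by 1.5-fold or more between 2 h and 8 h, 101 rose (0.893%) and 38 fell (0.336%) with HU210. These splits depended on the scaling. When each library was centred on its median, 561 genes rose and 755 fell at any size, and 68 rose and 67 fell by 1.5-fold or more. When the trend of each library on GC content and transcript length was removed, the counts were 611 and 785 at any size and 65 and 64 at 1.5-fold or more. Regardless of the path, 6535 genes were higher at 8 h than at 2 h (57.8%) and 4765 were lower (42.1%), and the median gene changed by 0.05 on the log2 scale.

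**Figure D1:**
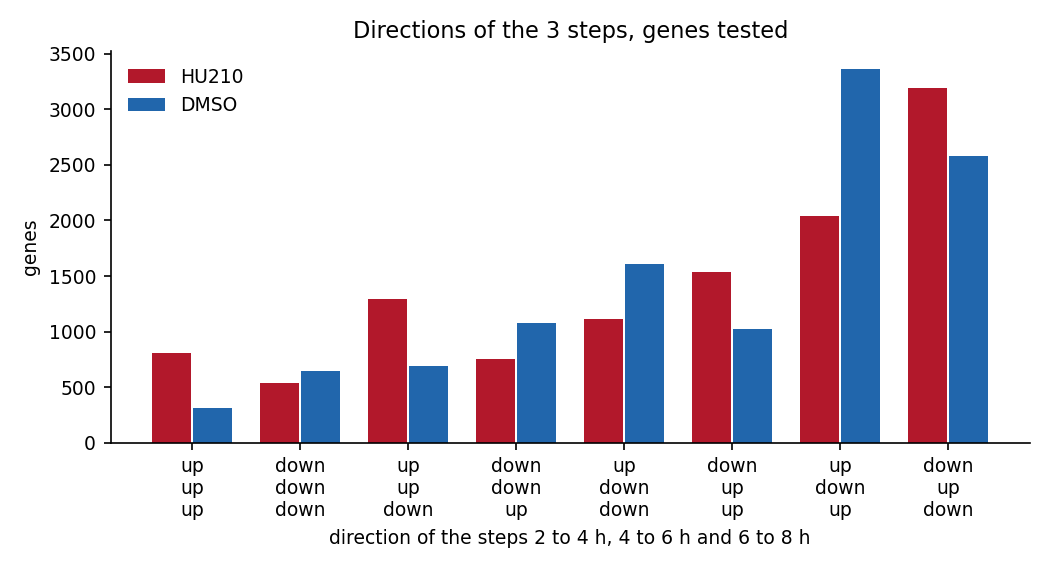
Number of genes (y axis) with each of the 8 sequences of up and down steps (x axis, first step on top) in the HU210 libraries (red) and the DMSO libraries (blue), 1 library per hour. HU210 had 810 genes with 3 upward and 541 with 3 downward steps, and the bars of genes that turned direction at both later steps are the tallest in both treatments.

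A straight line through the 4 HU210 hours was fitted for every gene with limma, in which the departure from the line, holding both noise and curvature, stands in for the missing replicates. No gene had a slope with a Benjamini-Hochberg adjusted p under 0.05 (0 of 11306, 0%, smallest adjusted p = 0.524). Before adjustment, 731 genes with an upward and 328 with a downward slope had p under 0.05, and these became 416 and 594 after centring and 494 and 581 after removal of the GC and length trend. No gene passed for the difference between the HU210 and DMSO slopes either (smallest adjusted p = 0.957, 294 genes with a higher and 32 with a lower HU210 slope at an unadjusted p under 0.05). These counts became 164 and 83 after centring, 164 and 119 after removal of the GC and length trend, and 206 and 26 with hour as a block. With 4 libraries, no order of hours can give an exact two-sided permutation p for a single gene below 0.0833. The genes below are therefore described by their values, and none is called particular to HU210.

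Replication-dependent histones were the gene group with the largest shift along the HU210 course. These genes encode the core histones H2A, H2B, H3 and H4 and the linker histone H1, are transcribed in S phase, and give mRNAs that end in a stem-loop and normally carry no poly(A) tail. Of 33 histone genes examined, 28 were higher at 8 h than at 2 h (against 57.8% of all genes). By 1.5-fold or more 18 were higher, against 346 of all 11306 genes. The median change of the 33 from 2 h was 0.05, 0.74 and 0.60 at 4, 6 and 8 h on the log2 scale, against −0.02, 0.06 and 0.05 for all genes. In the DMSO libraries the same medians were 0.17, −0.20 and −0.27, and 32 of 33 were lower at 8 h, against 6713 of all 11306 genes. At every step 2 of the 33 rose (H3c1 and H3c6, 6.06%, against 7.16% of all genes) and 1 fell (H2ac7, 3.03%, against 4.79%). Nearly all of the median increase lay between 4 h and 6 h, a step at which 32 of 33 were higher.

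The 25 histone genes outside the H2A family summed to 112, 123, 228 and 198 FPKM over the 4 hours of HU210, and to 202, 235, 184 and 166 FPKM at the same hours of DMSO. The 2 early HU210 libraries were thus the low ones, and the late HU210 libraries reached the DMSO range. In 24 of these 25 genes (96.0%), both the 2 h and the 4 h HU210 value lay below all 6 other libraries, a rule set after the values were seen, which 989 of all 11306 genes met (8.75%). H2A genes differed, as 2 of 8 met it and their sum ran 148, 139, 150 and 139 FPKM with HU210. The split of H2A from the other families was also made after the values were seen, so 96.0% is the share of a chosen set. Relative to DMSO at the same hour, the median of all 33 was −0.67, −0.79, 0.24 and 0.22 at the 4 hours in order on the log2 scale.

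Single members showed the same shape. H4c4, encoding histone H4, was at 13.4, 19.5, 38.9 and 36.5 FPKM after 2, 4, 6 and 8 h with HU210, and at 33.6, 38.6, 28.1 and 31.8 FPKM over the same hours of DMSO. Its 2 early HU210 values were the lowest of the 8 libraries and its 8 h value was 2.6-fold the 2 h value. The H2B gene H2bc3 ran 4.15, 4.45, 9.88 and 8.49 FPKM with HU210 and 8.27, 11.2, 8.55 and 6.81 FPKM with DMSO. The linker histone gene H1f4 ran 2.43, 2.76, 6.09 and 6.04 FPKM against 4.87, 6.54, 4.73 and 3.93 FPKM. H3c1, an H3 gene that rose at every step, went through 1.31, 1.98, 3.21 and 3.24 FPKM, against 3.27, 3.504, 2.59 and 2.65 FPKM with DMSO. H2ac7 shows the other behavior, falling through 33.9, 29.6, 25.7 and 24.6 FPKM with HU210, and its DMSO value was likewise highest at 2 h (32.8, 21.3, 23.3 and 23.2 FPKM). Copies of one histone are nearly identical and lie in clusters on chromosomes 13 and 3, so reads can be split or shared between them, and the members are not independent of each other.

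**Figure D2:**
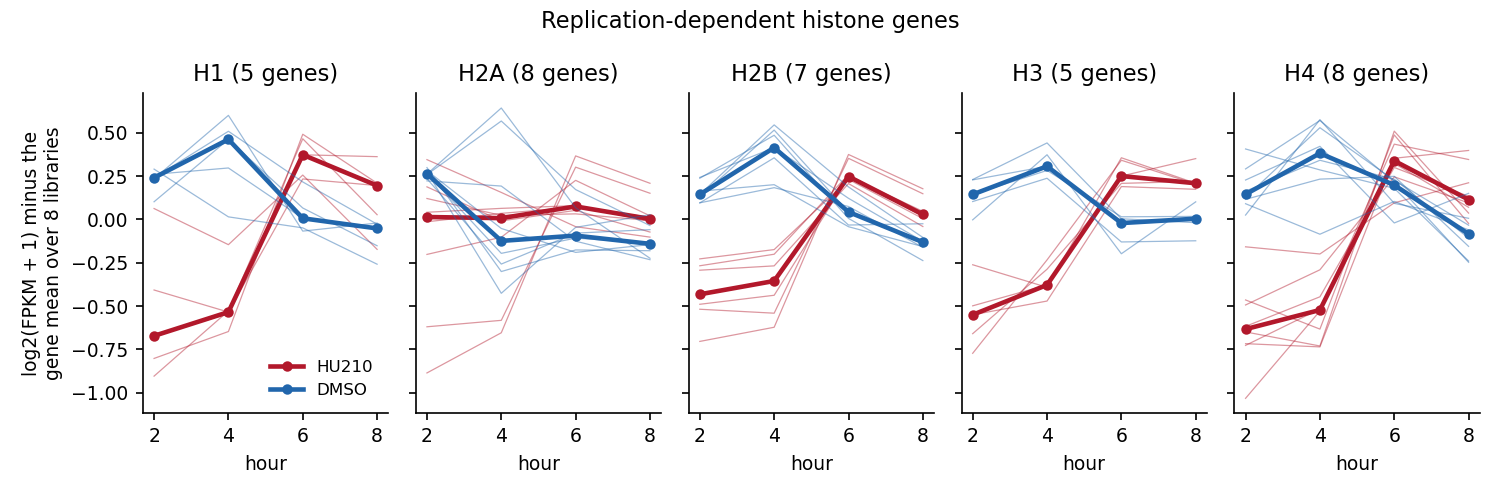
Level of 33 replication-dependent histone genes by hour (x axis), as log2(FPKM + 1) minus each gene's mean over the 8 libraries (y axis), by family, with thin lines for genes and thick lines with points for the family median in HU210 (red) and DMSO (blue), 1 library per hour. In H1, H2B, H3 and H4 the HU210 median lies under the DMSO median at 2 and 4 h and above it at 6 and 8 h, whereas the HU210 median of H2A stays nearly level and lies under the DMSO median at 2 h only.

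Other transcripts were examined beside the histones. Lars2, the mitochondrial leucyl-tRNA synthetase gene, was at 355, 438, 1506 and 1193 FPKM with HU210 and 906, 2183, 1257 and 1002 FPKM with DMSO, so that the 2 early HU210 values were again the lowest of the 8. The 119 annotated snoRNA, snRNA and other small RNA genes changed by a median of −0.43, 0.63 and 0.17 at 4, 6 and 8 h with HU210, and by −0.06, 0.21 and −0.59 with DMSO, and 23 of them (19.3%) met the low-at-2-and-4-h rule. Among 170 other protein-coding genes with at least 300 and under 700 exon bases, a length like that of histone genes, the medians were 0.05, 0.08 and −0.02 and 6 (3.53%) met the rule. The part of poly(A) selection, or of any other handling of the 2 early libraries, in the histone course was not tested.

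The promoters of the histone genes share short sequences that bind known factors, and 2 promoters are shown. The families were set beforehand, H4 for CCAAT and H2B for the octamer. Each promoter is from the family member with the largest increase among those that hold the motif in the stretch printed. Promoter windows of 250 bases before to 50 bases after the start site were taken from RefSeq (GRCm38.p6) and matched 8614 of the 11306 genes. Both strands were searched for CCAAT (the box bound by NF-Y), ATTTGCAT (the octamer bound by Oct1), TTTGAA (a cell-cycle homology region of the CHR type), GAANNTTC (the core of a heat shock element) and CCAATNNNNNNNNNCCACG (the ER stress element, which contains CCAAT and so counts for both). GAANNTTC can overlap TTTGAA on the strand where both hold GAA. Of 30 histone genes with a window, 26 held CCAAT (86.7%, against 40.1% of all windows) and 7 held the octamer (23.3%, against 1.36%). The windows below run from 250 bases before to 30 bases after the start, on the strand of the gene, for H4c4 (chr13:23581318-23581597, plus strand), where capitals mark CCAAT read on the other strand, and for H2bc3 (chr13:23746484-23746763, plus strand), where capitals mark the octamer.
H4c4: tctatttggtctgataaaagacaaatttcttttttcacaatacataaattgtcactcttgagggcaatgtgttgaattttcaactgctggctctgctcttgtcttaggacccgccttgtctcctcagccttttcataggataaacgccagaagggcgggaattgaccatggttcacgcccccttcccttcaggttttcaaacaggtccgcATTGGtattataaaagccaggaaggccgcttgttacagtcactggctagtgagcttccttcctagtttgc
H2bc3: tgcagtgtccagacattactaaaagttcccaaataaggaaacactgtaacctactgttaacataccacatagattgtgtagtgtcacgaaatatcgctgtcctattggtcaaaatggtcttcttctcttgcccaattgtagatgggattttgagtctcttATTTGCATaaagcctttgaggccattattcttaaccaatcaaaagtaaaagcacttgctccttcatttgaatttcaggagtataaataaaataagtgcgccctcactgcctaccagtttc
A match describes letters in a window and is not a measured binding site.

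Among the 101 genes that rose by 1.5-fold or more with HU210, several of the largest changes came late. Angel1, a member of the CCR4-related nuclease family, was at 1.92, 2.08, 2.55 and 9.02 FPKM after 2, 4, 6 and 8 h, a 3.43-fold difference that arose almost wholly between 6 and 8 h. In the DMSO libraries Angel1 was high at 6 h only (2.31, 2.34, 6.68 and 2.34 FPKM), so in each treatment 1 library stood well above the other 3. Cyb561a3, a cytochrome b561 family member, ran 1.82, 2.37, 3.01 and 7.67 FPKM with HU210 and 4.34, 5.94, 3.12 and 2.44 FPKM with DMSO, where its highest value lay at 4 h. Ptch1, the Hedgehog receptor and itself a Hedgehog target, ran 12.4, 12.7, 15.1 and 33.1 FPKM with HU210. Its DMSO course was alike, at 13.7, 17.3, 13.8 and 36.6 FPKM, with the 8 h libraries the 2 highest of the 8.

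Other risers climbed more evenly. Naa30, the catalytic subunit of the N-terminal acetyltransferase NatC, was at 5.16, 6.68, 9.68 and 13.3 FPKM, with a slope of 0.21 ± 0.024 (SE) log2 units per hour and a limma adjusted p of 0.524. With DMSO it ran 6.94, 13.6, 7.48 and 15.3 FPKM, also highest at 8 h but high at 4 h too. Rab11a, a GTPase of recycling endosomes, was the most abundant of the 15 largest risers at 98.9, 140.4, 145 and 196 FPKM and stood at 150.5, 194, 135 and 191 FPKM with DMSO. Its HU210 value at 2 h was below every other library, and its 8 h values in the 2 treatments were close. Deptor, an inhibitor of mTOR, rose through 2.75, 3.54, 4.26 and 6.59 FPKM, and Iqsec2, an exchange factor for Arf GTPases at synapses, through 4.52, 4.62, 5.56 and 10.1 FPKM. Others among the largest risers were Pih1d2, Hyi, Mctp1, Ppp1r26, the noncoding E130218I03Rik, Gm45929 and the pseudogene Gm6285, with 8 h values 2.05 to 2.79 times those at 2 h, and all but Gm6285 were at or below 3 FPKM at 2 h.

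The 38 genes that fell by 1.5-fold or more included abundant transcripts. Nme1, a nucleoside diphosphate kinase, declined through 466, 355, 284 and 259 FPKM, a 1.79-fold drop, and ran 334, 132, 317 and 247 FPKM with DMSO, where the low point was 4 h. Romo1, a small protein of the mitochondrial inner membrane, declined through 102, 95.6, 68.2 and 56.3 FPKM and from 71.7 to 58.1 FPKM with DMSO. The ribosomal protein gene Rpl12 declined through 234, 215, 161 and 131 FPKM, against 193, 131, 190.3 and 134 FPKM with DMSO. All of these were highest at 2 h of HU210 among the 8 libraries. Ribosomal proteins as a group did not follow Rpl12, as 36 of 74 were higher and 38 lower at 8 h. Among them 1 rose (1.35%, against 7.16% of all genes) and 4 fell (5.41%, against 4.79%). Ribosomal protein genes have many near-identical pseudogene copies that may share their reads, so the level of Rpl12 is uncertain, and the same holds for the pseudogenes Gm15740 and Gm11878 among the largest fallers.

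Other large fallers were less abundant. Ache, acetylcholinesterase, was at 6.96, 6.45, 3.79 and 3.57 FPKM with HU210 and at 7.36, 16.3, 3.87 and 3.57 FPKM with DMSO, where the 4 h library stood apart. Doc2a, a calcium sensor of synaptic vesicle release, went through 3.201, 1.84, 1.73 and 1.51 FPKM, and each DMSO library lay below the HU210 one of its hour, at 1.66, 1.25, 1.31 and 0.933 FPKM. Spns2, an exporter of sphingosine-1-phosphate, fell in both treatments, through 1.82, 1.18, 1.02 and 0.614 FPKM with HU210 and 2.195, 2.02, 1.62 and 1.35 FPKM with DMSO. Nhsl2 had the largest fall, 2.13, 1.74, 0.5398 and 0.138 FPKM, but its DMSO values were 0.245, 2.57, 2.85 and 0.228 FPKM, so that both its 8 h libraries and the DMSO 2 h library were near 0. Pigp, Nol7, Gin1 and A930005H10Rik completed the largest fallers with 8 h values 1.66 to 1.78 times below those at 2 h.

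**Figure D3:**
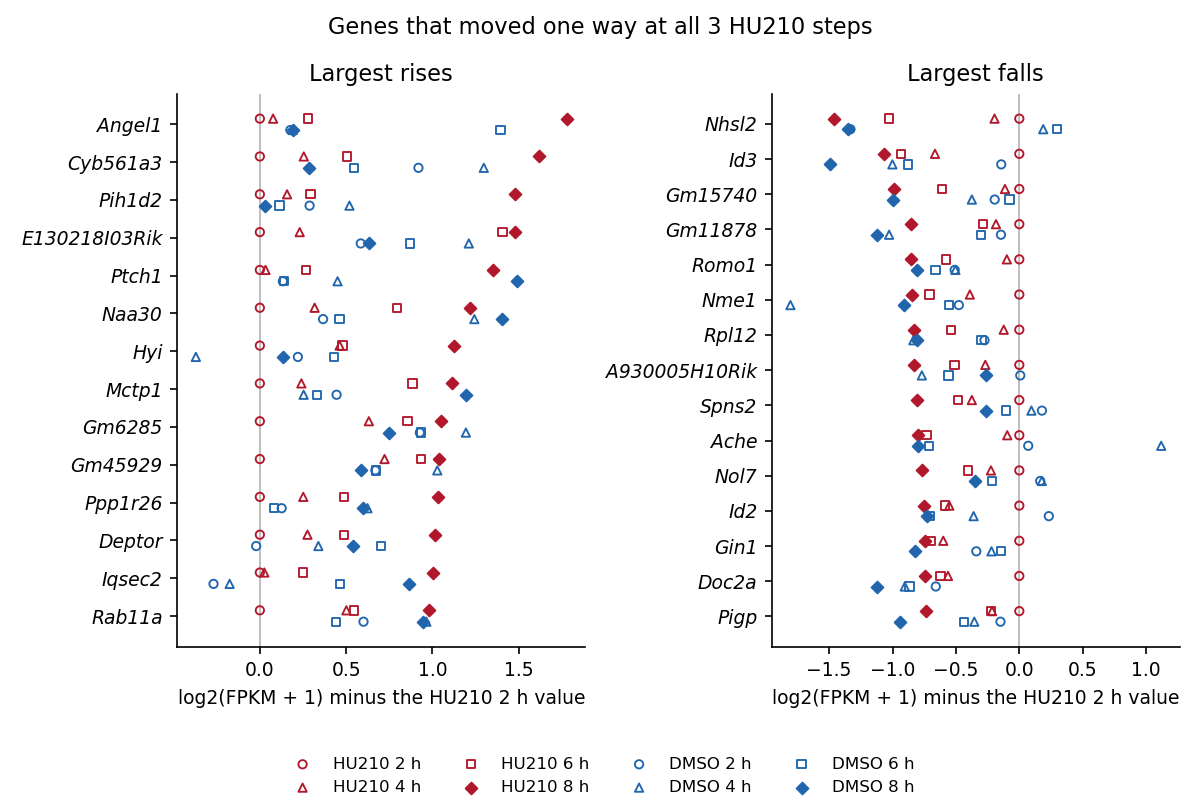
The largest rises (left, 14 of 15 genes shown) and the 15 largest falls (right) among genes that moved one way at all 3 HU210 steps. The x axis gives log2(FPKM + 1) minus the HU210 2 h value of the same gene for HU210 (red) and DMSO (blue), circles 2 h, triangles 4 h, squares 6 h and filled diamonds 8 h, 1 library each. The red symbols are ordered by hour because the genes were chosen for it, whereas the blue ones are mostly not, and the DMSO 8 h diamond of Ptch1, Naa30, Mctp1 and Id3, for example, lies farther out than the HU210 one.

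The direction of the HU210 course was set beside that of DMSO. Of the 810 genes that rose, 69 also rose at all 3 DMSO steps (8.52%, against 2.78% of all genes) and 6 fell at all 3 (0.741%, against 5.74%). With DMSO 613 of the 810 were higher at 8 h than at 2 h, against 4588 of all 11306 genes. Of the 541 that fell, 52 also fell at all 3 DMSO steps (9.61%, against 5.74% of all genes) and none rose at all 3 (against 2.78%). With DMSO 488 of the 541 were lower at 8 h, against 6713 of all genes. The genes that rose had a median GC content of 49.0% and 4358.5 exon bases, and those that fell 54.4% and 2860 exon bases, a difference whose part in these courses was not tested. Among the 101 larger risers the median change was 0.74 with HU210 and 0.34 with DMSO on the log2 scale, and among the 38 larger fallers it was −0.72 and −0.46. The HU210 values were used to choose the genes, whereas the DMSO values entered only the filter on mean FPKM. Scaling or handling that the 2 libraries of an hour may share would enter both courses, and its part was not tested. Over all 11306 genes the changes from 2 h to 8 h had a Spearman correlation of 0.53 between the courses, which share no library but share hours, and the fitted slopes one of 0.25.

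**Figure D4:**
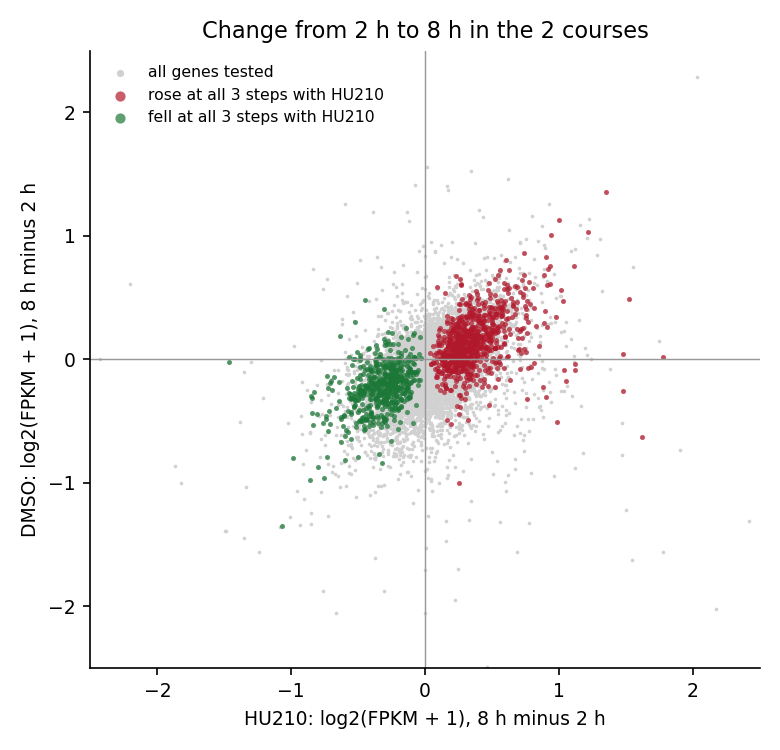
Change from 2 h to 8 h with HU210 (x axis) and with DMSO (y axis), both as log2(FPKM + 1), for 11306 genes (gray), with the 810 genes that rose at all 3 HU210 steps in red and the 541 that fell in green, and 7 genes outside the axes. Most red points lie above 0 on the DMSO axis (613 of 810) and most green points below 0 (488 of 541).

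Genes that rose in both treatments were led by Iqsec2 and Dpysl2. Dpysl2 encodes CRMP2, which binds tubulin and promotes axon growth, and stood at 20.01, 21.2, 37.8 and 38.7 FPKM with HU210 and 22.02, 25.7, 34.8 and 37.3 FPKM with DMSO. In both courses most of its increase came between 4 h and 6 h, and the 2 courses covered nearly the same range. Rapgef3, the cyclic AMP sensor Epac1 that activates Rap, rose through 0.914, 1.18, 1.53 and 2.18 FPKM with HU210 and 0.928, 1.25, 1.61 and 1.74 FPKM with DMSO. The lipid transfer protein gene Vps13d rose through 9.896, 11.4, 13.6 and 16.2 and 10.9, 11.5, 12.7 and 15.04 FPKM, and the zinc finger gene Zfp462 through 12.4, 15.1, 19.6 and 20.1 and 15.97, 18.1, 19 and 22.4 FPKM. Genes that fell in both included Id2, Spns2, Pigp, Sapcd2, Arhgef39 and the centromeric histone variant Cenpa, the last at 59.5, 50.2, 43.9 and 40.9 FPKM with HU210 and 55.1, 51.6, 44.96 and 41.9 FPKM with DMSO. The 2 Cenpa courses lay close together at every hour.

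Only 6 genes ran in opposite directions at every step of the 2 courses, all of them upward with HU210. They were 0.741% of the genes that rose with HU210, whereas 5.74% of all genes fell at all 3 DMSO steps. Kbtbd8, a substrate adaptor of a Cul3 ubiquitin ligase, was at 5.41, 6.01, 6.27 and 6.65 FPKM with HU210 and at 9.4, 7.75, 5.27 and 4.18 FPKM with DMSO, so the courses crossed between 4 and 6 h. The RNA-binding protein gene Rbm45 was at 13.97, 15.1, 15.3 and 16.1 FPKM against 17.9, 16.9, 13.8 and 12.1 FPKM, and the kinase gene Dyrk3 at 3.802, 4.401, 4.52 and 4.75 against 5.21, 4.62, 4.14 and 4.09 FPKM. Dffa, the inhibitor of the caspase-activated DNase, and BC005624 changed little in either course, by 0.18 and 0.17 with HU210 and by -0.06 and -0.09 with DMSO on the log2 scale. For all 6 the limma adjusted p of the difference in slope was 0.957 or higher.

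Sterol synthesis genes, which SREBP2 drives when cell cholesterol is low, were mostly lower after 2 h in both treatments. Of 22 examined, 20 were lower at 8 h than at 2 h (against 42.1% of all genes) and 5 fell at every step with HU210 (against 4.79%), among them Fdps, Acat2, Dhcr7 and Srebf2, with a median change of −0.16, −0.29 and −0.24 at 4, 6 and 8 h on the log2 scale. With DMSO 20 of 22 were also lower at 8 h, against 6713 of all 11306 genes, and the medians were −0.13, −0.17 and −0.29. Fdps, farnesyl diphosphate synthase, fell through 108, 101, 81.6 and 79.1 FPKM with HU210 and ran 91.4, 68.9, 100.3 and 78.5 FPKM with DMSO. Idi1, which isomerizes isopentenyl diphosphate, was at 52.1, 37.5, 32.7 and 34.2 FPKM with HU210 and 49.2, 39.03, 28.6 and 23.6 FPKM with DMSO, highest at 2 h in both. Tm7sf2, a sterol reductase, was at 30.1, 15.7, 15.7 and 17.8 FPKM with HU210, and this 2 h value was the highest of all 8 libraries. Its DMSO course ran 17.7, 25.8, 20.2 and 14.3 FPKM, highest at 4 h. The median slope of the list was −0.0366 log2 units per hour, −0.0165 without the 2 h library and −0.0722 without the 8 h library.

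Of 15 sterol genes with a promoter window, 13 held CCAAT (86.7%, against 40.1% of all windows). The Tm7sf2 window (chr19:6067821-6068100, minus strand, GRCm38.p6, 250 bases before to 30 after the start) is shown because Tm7sf2 had the largest decrease of the list, with CCAAT read on the other strand in capitals.
Tm7sf2: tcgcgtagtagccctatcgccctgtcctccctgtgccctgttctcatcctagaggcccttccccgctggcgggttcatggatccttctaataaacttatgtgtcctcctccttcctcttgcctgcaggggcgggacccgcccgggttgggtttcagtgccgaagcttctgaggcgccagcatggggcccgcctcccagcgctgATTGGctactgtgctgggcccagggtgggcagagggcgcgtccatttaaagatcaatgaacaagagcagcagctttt

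Cell division genes were lower in the later libraries as well. Of 36 mitosis and kinetochore genes, 28 were lower at 8 h than at 2 h with HU210 (against 42.1% of all genes), 6 fell at every step (16.7%, against 4.79%) and 1 rose. The list had a median change of −0.17, −0.10 and −0.19 at 4, 6 and 8 h with HU210 and of −0.03, −0.32 and −0.23 with DMSO. With DMSO 33 of 36 were lower at 8 h, against 6713 of all 11306 genes. Cdk1, the kinase that triggers mitosis, fell through 389, 344, 288 and 261 FPKM with HU210 and ran 375, 234, 320.2 and 248 FPKM with DMSO. The 4 h DMSO library was the lowest of the 8, whereas the HU210 values declined in order. Cdc25c, the phosphatase that activates Cdk1, fell through 8.47, 7.803, 6.65 and 5.93 FPKM, and Ccnb2 (cyclin B2) through 22.5, 19.9, 19.7 and 17.6 FPKM. The remaining fallers were Cenpa and, with changes of -0.14 and -0.12 on the log2 scale, the spindle kinase Aurka and the checkpoint protein gene Mad2l1.

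Cenpf, which encodes a large kinetochore and nuclear matrix protein, was the exception, rising through 18.3, 20.9, 26.4 and 31.6 FPKM with HU210 and standing at 22.2, 29.1, 25.5 and 29.9 FPKM with DMSO. Mki67, encoding the proliferation marker Ki-67, was lowest at 4 h (26.7, 20.5, 29.99 and 29.9 FPKM), and Top2a, topoisomerase II alpha, had nearly the same level at 2 h and 8 h (185, 158, 172 and 187 FPKM). Of 40 DNA replication genes, 29 were lower at 8 h (against 42.1% of all genes), 5 fell at every step (Tk1, Mcm7, Mcm2, Rfc4 and Rfc3, against 4.79%) and none rose, with a median change at 8 h of −0.09 with HU210 and −0.19 with DMSO. Tk1, thymidine kinase, fell through 51.3, 44.9, 41.1 and 38.6 FPKM and Mcm7, a subunit of the replicative helicase, through 36.2, 31.1, 27.9 and 27.9 FPKM. Replicative genes of S phase and the histones, which are also S phase genes, thus ran in different directions between 4 and 6 h of HU210. At this step 15 of 40 replication genes and 32 of 33 histone genes were higher, against 6834 of all 11306 genes. The DMSO counts were 5 of 40 and 6 of 33, against 4605 of all genes, so both lists were mostly lower there. The median slope of the mitosis list was −0.0248 log2 units per hour and became −0.0085 without the 2 h library. That of the replication list was −0.0215, −0.0133 without the 2 h and −0.0396 without the 8 h library, and −0.0358 after centring.

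Of 31 mitosis and kinetochore genes with a promoter window, 22 held TTTGAA (71.0%, against 11.7% of all windows) and 24 held CCAAT (77.4%). The Cdk1 window (chr10:69352883-69353162, minus strand, GRCm38.p6, 250 bases before to 30 after the start) is shown because Cdk1 had the largest decrease among the members with a match, with both copies of TTTGAA in capitals.
Cdk1: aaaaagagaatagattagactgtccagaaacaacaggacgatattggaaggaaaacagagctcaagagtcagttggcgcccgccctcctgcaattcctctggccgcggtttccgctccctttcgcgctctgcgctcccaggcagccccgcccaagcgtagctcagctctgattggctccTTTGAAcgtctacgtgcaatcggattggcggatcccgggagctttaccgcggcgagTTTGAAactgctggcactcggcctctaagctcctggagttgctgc

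The Id genes, inhibitors of the bHLH factors that drive neuronal differentiation, contributed some of the largest falls. Id3 fell through 18.1, 11.1, 8.996 and 8.11 FPKM with HU210, a 2.098-fold drop, with 16.3, 8.55, 9.38 and 5.79 FPKM in the DMSO libraries. Id2 fell through 4.27, 2.59, 2.51 and 2.12 FPKM with HU210 and 5.19, 3.103, 2.23 and 2.18 FPKM with DMSO, in both cases mainly between 2 and 4 h. The decline of both was thus present without the drug. Id1 was at 21.4, 23.9, 16.4 and 16.8 FPKM, with the highest value at 4 h, and Id4 at 3.603, 2.59, 5.18 and 2.52 FPKM, with the highest at 6 h. The Notch effectors Hey1 and Hey2 were low and highest at 6 h, at 3.89 and 1.61 FPKM. Among the 9 genes of the Id and Hes list, 2 fell (22.2%, against 4.79% of all genes) and none rose. At 8 h, 4 were higher than at 2 h with HU210, against 57.8% of all genes.

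Chaperone genes held a high share of risers. Of 25 heat shock protein and chaperonin genes, 20 were higher at 8 h than at 2 h with HU210 (against 57.8% of all genes). In this list 6 rose at every step (24%, against 7.16% of all genes) and 1 fell (4%, against 4.79%). The median change of the list was 0.09, 0.17 and 0.26 at 4, 6 and 8 h with HU210, and 0.24, −0.07 and 0.03 with DMSO, where the 4 h library was the high one. Hspd1, the mitochondrial chaperonin Hsp60, was at 136, 132, 183 and 251 FPKM with HU210 and 189, 335, 124 and 261 FPKM with DMSO. Its HU210 values at 6 h and 8 h were above those at 2 h and 4 h, yet the highest library was DMSO at 4 h. Hspa8, the constitutive Hsc70, was at 649, 1040.1, 957 and 1109.7 FPKM with HU210 and rose through 746, 939, 1031 and 1211 FPKM with DMSO. Hsp90ab1, the constitutive Hsp90, rose through 1512, 1912, 1926 and 1938 FPKM, with nearly all of the change between 2 and 4 h, and its other 7 libraries lay between 1799 and 2050 FPKM.

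Further members that rose were Hspa4l, an Hsp110 family nucleotide exchange factor, at 28.9, 30.8, 40.3 and 41.1 FPKM, Bag3, a cochaperone of Hsp70, at 24.6, 27.6, 28.2 and 32.2 FPKM, Ahsa1, an activator of the Hsp90 ATPase, at 142, 151, 168 and 174 FPKM, and the chaperonin subunits Cct7 and Cct8. Another chaperonin subunit, Cct6a, fell through 319, 289.7, 277 and 265 FPKM, so the subunits of 1 complex did not share a direction. The median slope of the list was 0.0463 log2 units per hour as deposited, 0.0321 after centring and 0.0283 after removal of the GC and length trend. GAANNTTC was found in 6 of 20 promoter windows of the list (30%, against 5.49% of all windows), and in the same share of the histone windows (9 of 30). The Chordc1 window (chr9:18292017-18292296, plus strand, GRCm38.p6, 250 bases before to 30 after the start) is shown with GAANNTTC in capitals, because this Hsp90-binding protein gene had the largest increase among the members with a match, at 30.5, 43.9, 50.5 and 45.4 FPKM.
Chordc1: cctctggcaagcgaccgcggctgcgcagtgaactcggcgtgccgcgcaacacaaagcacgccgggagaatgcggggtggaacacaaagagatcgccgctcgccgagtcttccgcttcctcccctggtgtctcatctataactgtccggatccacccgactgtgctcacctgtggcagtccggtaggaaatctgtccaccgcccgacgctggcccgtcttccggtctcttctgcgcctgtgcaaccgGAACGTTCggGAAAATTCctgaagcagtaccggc

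Genes of the unfolded protein response, which raises the folding capacity of the endoplasmic reticulum, moved little but mostly upward. Of 19 examined, 15 were higher at 8 h than at 2 h with HU210 (against 57.8% of all genes) and 5 rose at every step (26.3%, against 7.16%). The list had a median change of 0.03, 0.04 and 0.19 at 4, 6 and 8 h, against −0.02, −0.10 and −0.11 with DMSO. Hspa5 (BiP), the main chaperone of the endoplasmic reticulum, rose through 232, 246, 258 and 274 FPKM with HU210 and ran 262, 220.4, 252 and 201 FPKM with DMSO. The HU210 rise was 1.18-fold in all and the DMSO values spanned a wider range. Sel1l, a scaffold of the degradation machinery, rose through 13, 15.8, 17.3 and 18.7 FPKM, and the transcription factor gene Xbp1 through 57.6, 61.3, 61.9 and 65.9 FPKM. Hyou1 and Syvn1 completed the risers at 1.07-fold and 1.16-fold, and Syvn1 rose with DMSO too. Calr (calreticulin) was lowest at 6 h (295, 288, 248 and 273 FPKM).

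The median slope of the unfolded protein response list was 0.0327 log2 units per hour, 0.0108 without the 8 h library and 0.0185 after centring. Of 17 promoter windows of the list, 8 held the ER stress element (47.1%, against 0.197% of all windows) and 16 held CCAAT. The window of Canx (chr11:50325644-50325923, minus strand, GRCm38.p6, 250 bases before to 30 after the start), the gene of the lectin chaperone calnexin, is shown with the element in capitals. Canx was at 234, 332, 322 and 342 FPKM with HU210, the largest change from 2 to 8 h among members with the element. With DMSO it ran 284, 339, 291 and 344 FPKM, so the 8 h values were close in the 2 treatments.
Canx: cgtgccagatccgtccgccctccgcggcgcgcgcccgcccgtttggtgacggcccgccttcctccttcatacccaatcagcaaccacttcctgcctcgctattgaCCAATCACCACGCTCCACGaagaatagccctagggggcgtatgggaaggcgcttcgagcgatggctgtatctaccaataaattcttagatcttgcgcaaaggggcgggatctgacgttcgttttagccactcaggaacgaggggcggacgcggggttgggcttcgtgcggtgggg

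Autophagy and lysosome genes, which supply nutrients in starved cells, had 29 of 38 members higher at 8 h (against 57.8% of all genes), 6 that rose (15.8%, against 7.16%) and 1 that fell (Gaa, by -0.04 on the log2 scale). Their median change at 8 h was 0.16 with HU210 and 0.03 with DMSO, and the median slope shrank from 0.0186 to 0.0043 log2 units per hour after centring. Atp6v1b2, a subunit of the proton pump that acidifies lysosomes, rose through 64.4, 71.7, 78.3 and 84.6 FPKM with HU210 and ran 77.8, 86.6, 68.2 and 79.7 FPKM with DMSO. Wipi2, which recruits the lipidation machinery to the forming autophagosome, rose through 20.9, 21.1, 24.7 and 27.6 FPKM. Atg12, a conjugation protein of autophagy, rose 1.36-fold, the kinase gene Ulk2 1.18-fold, the pump subunit gene Atp6v1h 1.17-fold and the cholesterol transporter gene Npc1 1.13-fold. Sqstm1, the autophagy receptor p62, was at 223, 257, 212 and 293 FPKM, highest at 8 h.

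**Figure D5:**
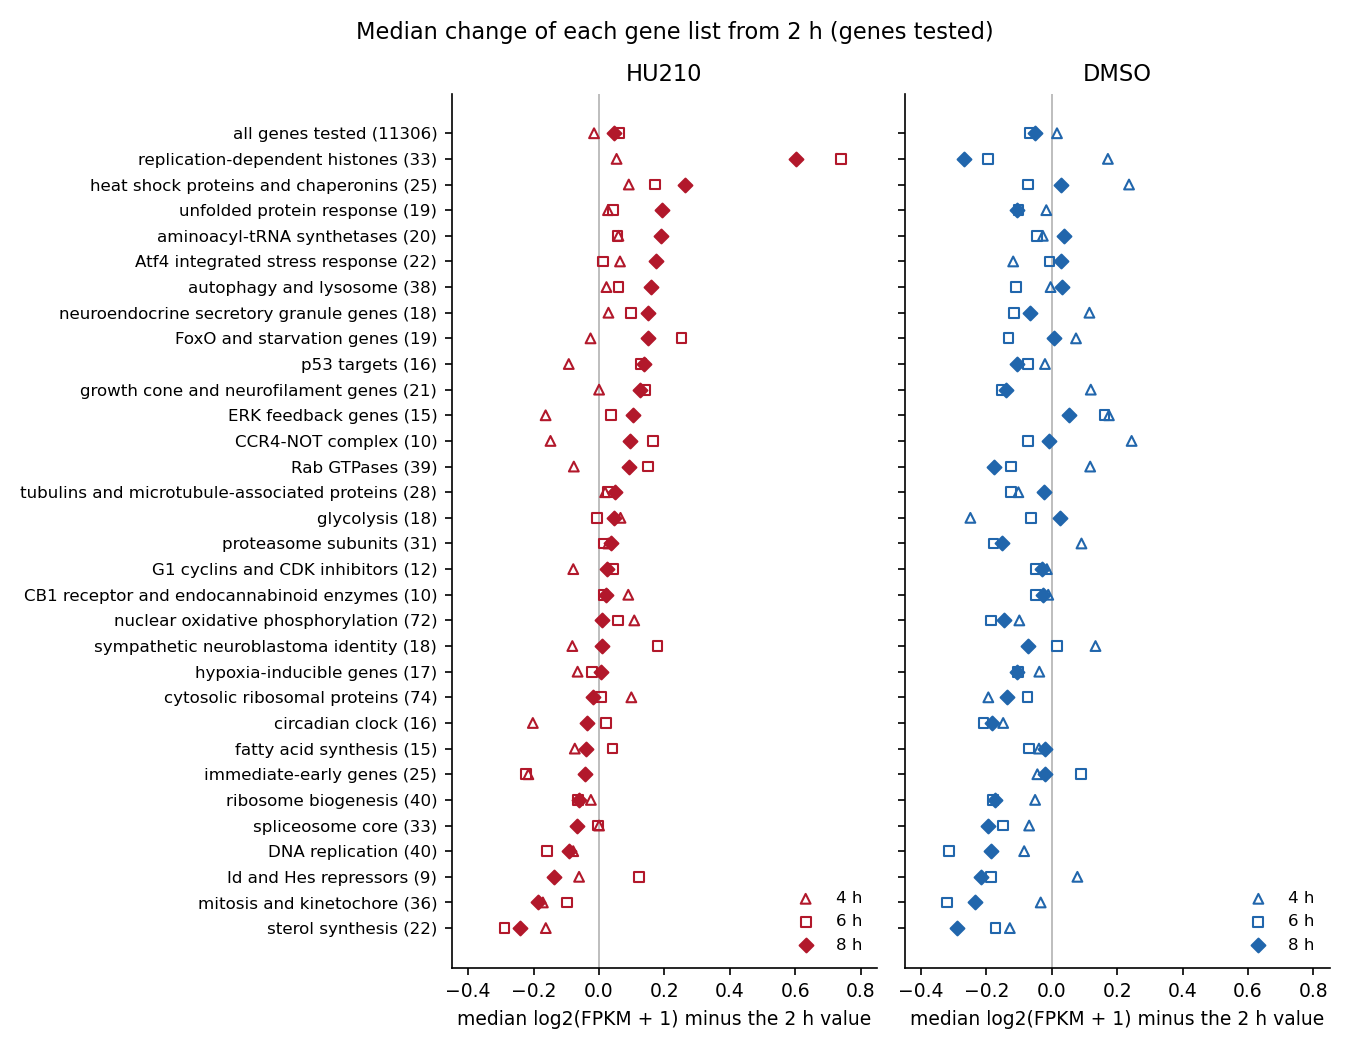
Median change from 2 h of 31 gene lists and of all genes tested (y axis, number of genes in brackets) on the log2(FPKM + 1) scale (x axis), for HU210 (left, red) and DMSO (right, blue), with triangles at 4 h, squares at 6 h and filled diamonds at 8 h, 1 library per hour. Histones lie highest at 6 h (0.74) and 8 h (0.60) of HU210, with DMSO values of −0.20 and −0.27, and sterol synthesis genes lie lowest at 8 h in HU210 (−0.24) with a DMSO value of −0.29.

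Neuroendocrine cells store peptides in secretory granules, and of 18 genes of these granules, 14 were higher at 8 h (against 57.8% of all genes). Of the 18, 3 rose (16.7%, against 7.16% of all genes) and 1 fell (5.56%, against 4.79%). The median change of the list was 0.03, 0.10 and 0.15 at 4, 6 and 8 h with HU210. With DMSO 6 of 18 were higher at 8 h, against 4588 of all 11306 genes. Chgb, the granule matrix protein chromogranin B, rose through 93.1, 107, 139 and 144 FPKM with HU210 and ran 112, 144, 105 and 141 FPKM with DMSO. Pam, the enzyme that amidates peptide hormones, rose through 13.5, 17.5, 18.5 and 23.3 FPKM, against 11.8, 19.1, 13.3 and 18.1 FPKM with DMSO. Syt7, a calcium sensor of exocytosis, rose through 5.56, 5.62, 6.82 and 7.48 FPKM while its DMSO values lay between 5.93 and 6.67 FPKM. Pcsk1n, encoding an inhibitor of prohormone convertase 1, fell through 70.8, 64.4, 60.1 and 53.3 FPKM with HU210 and was also lower at 8 h than at 2 h with DMSO (67.8, 50.3, 59.1 and 49.9 FPKM). The peptide gene Npy was at 13.1, 13.5, 10.9 and 8.28 FPKM, lowest at 8 h in both treatments. Chga, encoding chromogranin A, held at 62.8 to 63.1 FPKM until 6 h and was at 51.4 FPKM at 8 h.

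Of 21 growth cone and neurofilament genes, 2 rose (9.52%, against 7.16% of all genes) and none fell. The risers were Dpysl2 and Crmp1, a relative of CRMP2 at 122, 129, 132 and 134 FPKM. With HU210, 15 were higher at 8 h (against 57.8% of all genes) and the median change was 0.13. With DMSO, 9 were higher (against 4588 of all 11306 genes) and the median change was −0.14. Gap43, a growth cone protein gene, was at 36.6, 41.2, 47.5 and 43.7 FPKM and Prph at 508, 488, 519.9 and 485 FPKM, both highest at 6 h. Of 19 FoxO and starvation genes, 14 were higher at 8 h with HU210 (against 57.8% of all genes) and 5 lower, among them Ccng2, Fbxo32 and Pik3ip1. In this list 2 rose (10.5%, against 7.16% of all genes) and none fell, and with DMSO 10 were higher at 8 h. The receptor gene Igf1r, which FoxO factors and starvation are known to raise, rose through 9.64, 12.1, 17.2 and 18.9 FPKM with HU210 and ran 9.78, 14.6, 18.8 and 18.1 FPKM with DMSO. It was higher by 1.87-fold at 8 h, and the DMSO value at 6 h was above the HU210 one. With HU210, the insulin receptor gene Insr (7.16, 7.104, 10.4 and 9.86 FPKM) and the phosphoinositide 3-kinase subunit gene Pik3r1 (7.15, 7.01, 10.5 and 10.7 FPKM) had their increase between 4 and 6 h. Sesn3, a stress-induced mTORC1 regulator, rose through 3.33, 3.45, 4.54 and 4.87 FPKM. With DMSO, Insr ran 7.47, 10.07, 9.25 and 10.04 FPKM, Pik3r1 7.38, 11.2, 8.95 and 10.3 FPKM, and Sesn3 3.51, 5.97, 3.54 and 4.61 FPKM. The DMSO 4 h value of each was thus near or above its highest HU210 value.

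Of 25 immediate-early genes, 11 were higher (against 57.8% of all genes) and 14 lower at 8 h than at 2 h with HU210. Among them 2 rose (8%, against 7.16% of all genes) and 1 fell (4%, against 4.79%). Egr1 was at 36.8, 24.3, 19.2 and 32.2 FPKM, Egr2 at 1.8, 0.967, 0.703 and 1.46 FPKM and Egr3 at 2.32, 1.33, 0.659 and 1.398 FPKM with HU210, each highest at 2 h and lowest at 6 h. In the DMSO libraries their highest value lay at 6 h, with Egr1 at 18.3, 18.8, 27.04 and 18.9 FPKM. Fos fell through 2.7, 1.88, 1.83 and 1.83 FPKM. Nr4a2, an orphan nuclear receptor gene, rose through 1.02, 1.099, 1.51 and 1.92 FPKM and Klf6, a zinc finger factor gene, through 22.2, 23.3, 24.7 and 28.3 FPKM, and neither did so with DMSO. Atf3, a stress-induced factor gene, was at 5.53, 7.43, 6.73 and 9.91 FPKM with HU210, and its 8 h values were close in the 2 treatments (9.91 and 9.704 FPKM).

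The receptor gene itself, Cnr1, was at 15.5, 18.3, 27.9 and 20.8 FPKM after 2, 4, 6 and 8 h with HU210. It rose over the first 2 steps and was lower at 8 h, and with DMSO it was at 17.3, 26.95, 20.2 and 24.7 FPKM, with the high values at 4 h and 8 h. The HU210 slope was 0.09 ± 0.046 (SE) log2 units per hour. Of the 10 genes of the receptor and of endocannabinoid enzymes, Abhd6, which degrades 2-arachidonoylglycerol, rose through 8.29, 10.1, 10.4 and 10.9 FPKM and Faah, which degrades anandamide, fell through 7.32, 6.83, 6.57 and 5.87 FPKM. Faah was also lower at 8 h than at 2 h with DMSO (6.47, 4.67, 6.71 and 4.82 FPKM). The other 7 enzymes took no single direction, and their 8 h values were 0.855 to 1.21 times those at 2 h.

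The steps differed in size. From 2 to 4 h, 158 genes were higher (1.40%) and 178 lower (1.57%) by 1.5-fold or more with HU210, from 4 to 6 h 529 were higher (4.68%) and 135 lower (1.19%), and from 6 to 8 h 129 were higher (1.14%) and 166 lower (1.47%). The DMSO counts at the same steps were 247 higher and 224 lower, 279 and 689, and 150 and 188. A large step between 4 h and 6 h was thus present without the drug too, with more genes lower than higher. Consecutive steps share a library, so a value out of line in 1 library enters both. Across genes the change from 2 to 4 h had a Spearman correlation of 0.27 with GC content and that from 4 to 6 h one of −0.35, against −0.02 from 6 to 8 h. In the DMSO libraries the same correlations were −0.35, 0.43 and −0.16, so the 4 h libraries of the 2 treatments stood apart on opposite sides. The part of GC content in any single change was not tested.

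The genes with the largest single steps differed in shape. Pde4d, a phosphodiesterase that degrades cyclic AMP, was at 2.599, 2.39, 11.9 and 7.32 FPKM with HU210 and between 3.15 and 4.22 FPKM with DMSO, so that 6 h and 8 h of HU210 were its 2 highest libraries. Ndrg1, a stress- and differentiation-induced gene, alternated at 7.68, 1.87, 7.16 and 2.53 FPKM, and its DMSO values were 2.301, 3.23, 6.097 and 2.25 FPKM. Tmem216, encoding a protein of the ciliary transition zone, stepped up between 2 and 4 h and stayed there (5.23, 14.8, 15.6 and 14.5 FPKM), and with DMSO it reached its higher level at 6 h (5.94, 7.97, 13.6 and 12.6 FPKM). Ndufb3, a subunit of respiratory complex I, was at 42.7, 109.7, 53.6 and 69.2 FPKM, with 4 h the highest library of the 8. Masp2, a protease of the complement lectin pathway, was at 6.59, 7.93, 3.02 and 12.2 FPKM, lowest at 6 h and highest at 8 h within the HU210 course.

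Hectd2, encoding a HECT-domain ubiquitin ligase, was at 4.26, 3.82, 1.63 and 8.52 FPKM and its antisense neighbor Hectd2os at 12.4, 8.87, 15.8 and 0.358 FPKM, so the 2 went in opposite directions between 6 and 8 h. The materials of the study name a stranded library kit, but whether reads were counted by strand is not given in the sources used here, and if they were not, reads where both genes overlap could belong to either. Fxyd3, a regulator of the sodium pump, was at 0.103, 0.153, 3.43 and 2.79 FPKM with HU210 but at 2.29 FPKM at 2 h of DMSO. Tppp, a tubulin-binding protein gene, was at 2.97, 0.732, 0.192 and 3.02 FPKM, and Tnnc1, troponin C, was listed at 0 at 2 h and 6 h and at 3.08 FPKM at 8 h, with DMSO values of 0, 3.56, 3.27 and 3.87 FPKM. Defb30 reached 3.46 FPKM at 4 h and was at 0.114, 0.439 and 0.129 FPKM at the other HU210 hours, while with DMSO it stood at 2.02, 0.157, 1.87 and 0.2495 FPKM. On-and-off values of this kind in low genes were thus present in both treatments.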

How the data were processed

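Neuro2A (N2A) cells were starved of serum for 16 h and given 2 µM HU210 or DMSO for 2, 4, 6 or 8 h, and mRNA pooled from 2 to 3 experiments was purified on oligo(dT) beads and sequenced as 1 library per condition. The authors aligned reads to mm9 with TopHat2 2.0.8 and Bowtie2 2.1.0 (SAMtools 0.1.7), and estimated FPKM with Cufflinks, whose version is not given in the sources used here, with its options for reads of several origins, for bias along fragments and for upper-quartile scaling. The deposited values are FPKM + 1 per gene and hour, from which 1 was subtracted. Depth cannot be recovered from FPKM, although the paper gives a range of reads per sample. The number of libraries limits the precision stated, as do curvature of the courses, low values and the scaling of each library. The table's columns of fold changes, p-values and q-values, and the list of differential genes, hold the authors' own HU210 against DMSO comparisons and were not used.

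Rows were joined over hours by Ensembl ID, which gave 15888 genes, all of them found in GENCODE vM1, the source of biotype, length and GC content. Genes with a mean of at least 1 FPKM over the 8 libraries were kept (11306). A line over hours was fitted to log2(FPKM + 1) with limma 3.58.1 (R 4.3.3; eBayes with trend, 2 residual degrees of freedom, Benjamini-Hochberg adjustment), a procedure tested on simulated data. Its p-values test the slope over hours, with departure from the line as the error term, in these libraries only. The GC and length trend was removed by loess with a span of 0.3. Python 3.11.15 was used for the other steps. Promoter sequences came from RefSeq (GRCm38.p6), a build other than mm9, and no coordinates were converted.

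Named genes were the 15 largest rises and falls from 2 to 8 h among genes that moved one way at all 3 steps, with transcripts of at least 300 bases, the 6 largest in each direction that moved the same or the opposite way with DMSO, examples from the 6 largest in each direction at each step, list members and Cnr1. No gene qualified by an adjusted p. The gene lists were chosen with earlier results of these data known. List members named in the text, the low-at-2-and-4-h rule and the split of H2A from the other histones were chosen after their values were seen. So were the comparisons with Lars2, small RNAs and short coding genes. Some members of these groups are not reported here.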

Additional observations from a re-analysis of the deposited data

How the results depend on the processing

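The count of HU210 slopes at an adjusted p under 0.05 stayed at 0 under every pseudocount, filter, scaling and left-out hour, with smallest adjusted p from 0.171 (without 6 h) to 1 (without 8 h), 0.705 in 1 fit over 8 libraries and 0.534 without the variance trend. The difference of slopes gave 0 throughout as well, with hour as a block included (HU210 minus DMSO within each hour, smallest adjusted p = 0.301). For DMSO, 23 genes (15 upward, 8 downward) passed without the 8 h library, a fit with 1 residual degree of freedom. The counts of genes that moved one way by 1.5-fold or more, 101 rising and 38 falling, became 68 and 67 with centring, 65 and 64 with the GC and length trend removed, 46 and 17 when each step had to reach 0.1, and 298 and 175 at 1.3-fold. Leaving out 1 hour, which leaves 2 steps, gave 160 (without 8 h) to 249 (without 4 h) rising and 60 (without 8 h) to 85 (without 6 h) falling.

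None of the 7 lists below changed the sign of its median slope, but sizes shifted. Of the list medians recomputed under other settings, 21 were marked as moved and 28 as the same. Of the recomputed counts, 16 were marked as moved and 36 as the same. In log2 units per hour, leaving out 1 hour gave 0.111 to 0.185 for histones (0.129 with all 4), −0.0722 to −0.0165 for sterol synthesis, −0.0317 to −0.0085 for mitosis, −0.0396 to −0.0133 for DNA replication, 0.0330 to 0.0448 for chaperones, 0.0108 to 0.0344 for the unfolded protein response and 0.0149 to 0.0248 for autophagy. Centring and removal of the GC and length trend gave −0.0358 and −0.0365 for DNA replication, 0.0321 and 0.0283 for chaperones, 0.0185 and 0.0189 for the unfolded protein response, and 0.0043 and 0.0063 for autophagy. Of the changes of single named genes recomputed under other settings, 207 stayed within the scatter of the gene's 4 hours about its fitted line and 36 moved further, nearly all with a pseudocount of 0.1, and none of 1.5-fold or more reversed. Alternatives for DMSO slopes and single genes, GC removal for lists, and the filter at 5 FPKM, GC removal and the hour block for the slope difference were added after seeing the data. The causes of these shifts were not tested. Each condition has 1 library, so no replicate number could pair libraries, and the hour block pairs the treatments by hour only.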

Other observations

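Atf4 targets, genes of amino acid stress, were higher at 8 h than at 2 h in 16 of 22 cases with HU210 and in 13 of 22 with DMSO, against 57.8% of all genes with HU210 and 4588 of 11306 with DMSO. Of them Ddit3, the stress factor CHOP, rose through 90.8, 99.9, 100.2 and 119 FPKM with HU210 and ran 91.3, 89.8, 108 and 101 FPKM with DMSO. Nupr1, a stress-induced chromatin protein gene, rose through 59.1, 61.2, 62.5 and 85.98 FPKM and Sesn2, an inhibitor of mTORC1 signaling, through 19.8, 21.2, 22.3 and 23.4 FPKM. Of 16 p53 targets, 10 were higher at 8 h with HU210 and 6 with DMSO, a share close to that of all genes in each treatment. Mdm2, the ligase that degrades p53, rose through 37.8, 39.6, 40.4 and 48.9 FPKM against 44.4, 58.9, 36.2 and 52.3 FPKM with DMSO, Trp53inp1 rose through 0.818, 0.853, 1.69 and 1.78 FPKM, and Aen, an apoptosis-enhancing nuclease gene, fell through 46.2, 42.8, 36.4 and 35.8 FPKM. Sesn2 is a member of both lists.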
